A study of Mus musculus with 4 samples.

Results

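The genes described here encode the receptors for glutamate and GABA, the main excitatory and inhibitory transmitters of the brain. They were taken by name as every row of the expression table for the Gria, Grik, Grin1, Grin2, Grin3, Grm, Gabra, Gabrb, Gabrg, Gabrd, Gabre, Gabrq and Gabbr families. This gave 35 of the 18169 rows, 22 for glutamate and 13 for GABA receptors. The families hold 41 genes in the list used here, and the other 6 were not analysed here. RNA-seq was done on primary neural stem/progenitor cells (NSCs), 2 +/+ samples and 2 Chd5-/- samples of strain C57BL/6, and the comparison asks how loss of the chromatin remodeler Chd5 alters their transcriptome. Each culture came from the periventricular brain of 1 neonate, with its ventricular and subventricular zones, and was kept in proliferation medium with EGF and FGF2. The growth protocol gives postnatal day 1, whereas the age entries give days 1 and 2 for +/+ and days 3 and 4 for Chd5-/-, so by those entries age and genotype cannot be told apart. Sample values below are in the order replicate 1, replicate 2, in TPM (a transcript level scaled for transcript length and for the total of the sample), and the depth behind them is unknown because TPM keeps no read number.

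Ionotropic glutamate receptors are cation channels assembled from subunits of the AMPA (Gria), kainate (Grik) or NMDA (Grin) group, whereas the metabotropic ones (Grm) signal through G proteins. GABA-A receptors are chloride channels, most often built of alphas, betas and a gamma, and GABA-B receptors are pairs of Gabbr1 and Gabbr2. Both transmitters are known to act on neural progenitors before synapses exist, where GABA can depolarise the cell, and radial glia and astrocytes are known to express Grm5 and Grm3. Oligodendrocyte precursors express AMPA and kainate receptors.

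The targeted gene, Chd5, was listed at 0.39 and 0.37 TPM for +/+ and 0.06 and 0.04 TPM for Chd5-/- NSCs, without overlap but below the mean of 1 TPM used for testing. In the list of stem cell and radial glia markers, Fabp7, Vim and Sox2 were the most abundant, and high in all 4 samples. Hes5 was at 8.52 and 3.13 TPM in +/+ and at 1.16 and 43.69 TPM in Chd5-/- samples. Prom1 was at 0.99 and 4.15 TPM in +/+ and at 45.27 and 3.2 TPM in Chd5-/- samples. The list summed to 6509.14 to 7935.74 TPM in +/+ and 3508.60 to 5858.86 TPM in Chd5-/- samples, most of it Fabp7. Of its 8 genes, Fabp7, Vim and Sox2 were lower and Egfr higher in Chd5-/- samples without overlap. Over all rows tested, 13.0% were lower and 46.3% higher without overlap. None of the 8 passed an unadjusted p-value of 0.05 in limma. Nes averaged 78.97 TPM in +/+ and 77.77 TPM in Chd5-/- samples. The neuronal nuclear marker Rbfox3 was at 0.07 TPM or below. Microglia and endothelial lists summed to at most 0.75 and 0.70 TPM per sample. Only 3 of the 8 microglia genes and 2 of the 4 endothelial genes had a row. The Chd5-/- samples differed from each other in markers of other cells. Replicate 1 held 21.78 TPM of mesenchymal and mural markers (Acta2, Col3a1 and Dcn leading) against at most 0.37 TPM elsewhere, and 0.71 TPM of Gfap against 13.89 to 19.66 TPM elsewhere. Not every astrocyte marker was low there, with Gja1 at 332.51 TPM against 179.69 TPM in +/+ replicate 1. Chd5-/- replicate 2 held 347.28 TPM of oligodendrocyte markers against 41.58 to 61.05 TPM elsewhere.

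Of the 35 receptor genes, 18 had a mean of at least 1 TPM and were tested, 11 for glutamate and 7 for GABA. Between genotypes, Gabbr2, Gabra2, Grik5 and Grik4 were higher and 3 genes, Grm3 and Grm5 among them, lower in Chd5-/- NSCs at an unadjusted p-value under 0.05. None of the 18 passed the threshold on the adjusted p-value, in limma with Benjamini-Hochberg adjustment over all 12576 rows tested, where 0.0557% of rows passed. The smallest adjusted p-value of a receptor gene was 0.12. The 4 higher genes of 18 compare with 21.9% of all rows, and the 3 lower genes with 2.27% of all rows. Values of the Chd5-/- samples were both above those of the +/+ samples for 5 genes (Grik1, Grik4, Grik5, Gabra2 and Gabbr2), against 46.3% of all rows, and below them for 4, with Gria1, Grm5 and Grm3 among them, against 13.0% of all rows. The remaining 9 overlapped. The median log2 fold change was 0.55 for the receptor genes, 0.45 for glutamate and 1.23 for GABA, beside 0.34 over all rows tested. After median-of-ratios scaling, which centres the table by construction, the medians were 0.26 for the receptor genes and 0.0052 for all rows, and after quantile normalization 0.15 and -0.0539. The receptor median was the lower with no minimum (0.11 beside 0.19 for all rows) and with a minimum mean of 10 TPM (-0.28 beside 0.19). So it was without +/+ replicate 1 (0.15 beside 0.41) and without Chd5-/- replicate 2 (-0.16 beside 0.33). In the other settings run it was the higher. Differences are of log2(TPM + 1) throughout, which understates the change of low genes, and p-values measure the spread between these samples alone.

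**Figure D1:**
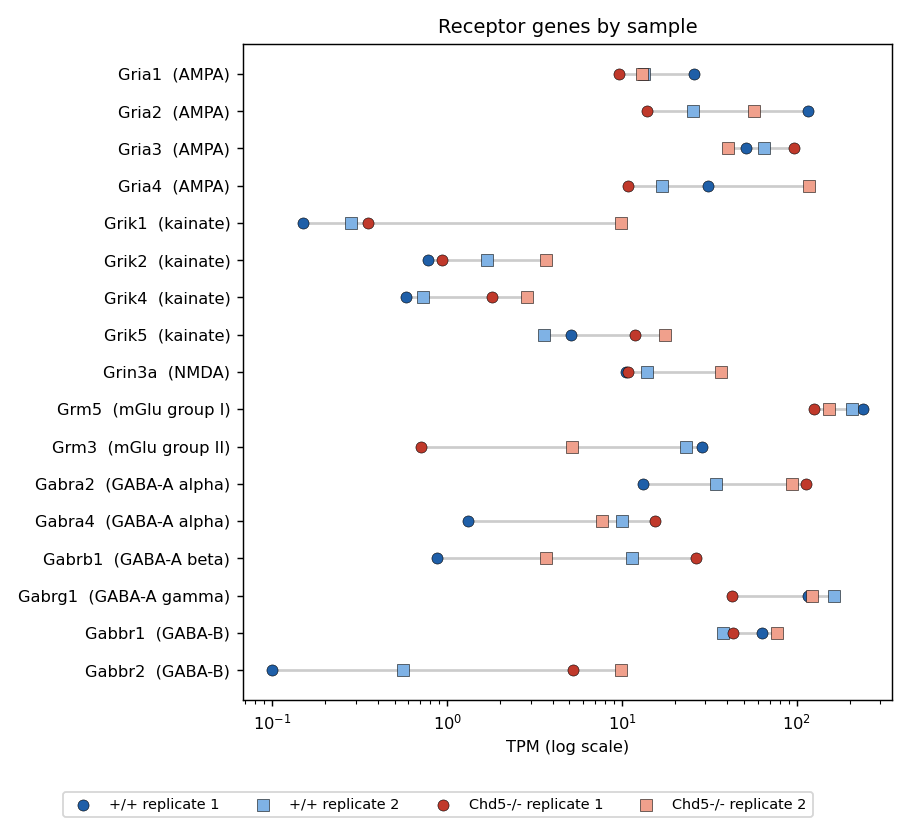
TPM (log axis) of 17 of the 18 receptor genes with a mean of at least 1 TPM in each of the 4 samples, ordered by family. Blue points are +/+ and red points Chd5-/- samples, circles replicate 1 and squares replicate 2; the grey line spans lowest to highest. The red points of Gabbr2, Gabra2 and Grik5 lie to the right of both blue points and those of Grm3 and Grm5 to the left.

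The receptor genes differed more between samples of 1 genotype than genes did in general. The median absolute log2 difference between the 2 +/+ samples was 0.55 over the 18 genes and 0.25 over all rows, and between the 2 Chd5-/- samples it was 1.07 and 0.40. For 11 of the 18, or 61.1%, a difference within a genotype exceeded the difference between genotypes, against 53.6% of all rows. Summed over all 35 genes the level was 720.73 and 653.21 TPM in +/+ and 544.36 and 785.33 TPM in Chd5-/- samples, which overlap. In bulk RNA, fewer cells of a type and less RNA per cell cannot be told apart.

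**Figure D2:**
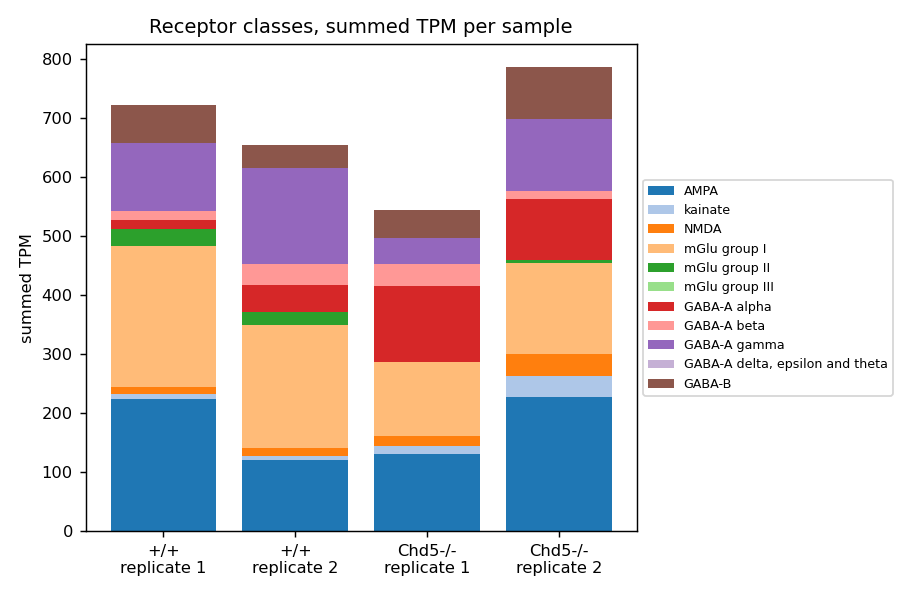
Stacked bars of summed TPM (linear axis from 0) per sample, 1 colour per receptor class. Group I mGlu (almost all Grm5) is the tallest block in both +/+ samples, at 238.75 and 207.23 TPM; the GABA-A alpha block grows from 15.24 and 44.58 TPM in +/+ to 128.51 and 102.97 TPM in Chd5-/- samples.

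Among the AMPA subunits all 4 were expressed, and no member passed the test. Their sum was 224.43 and 120.98 TPM in +/+ and 130.39 and 227.96 TPM in Chd5-/- NSCs. Gria2, whose edited subunit makes the channel impermeable to calcium, was at 116.31 and 25.5 TPM in +/+ and at 13.85 and 56.83 TPM in Chd5-/- samples. Its values therefore spread more within each genotype than between them. Its share of the 4 subunits was 51.8% and 21.1% in +/+ and 10.6% and 24.9% in Chd5-/- samples. Gria4 was at 31.1 and 16.92 TPM in +/+ and at 10.82 and 117.61 TPM in Chd5-/- samples, so that 1 Chd5-/- sample was the lowest of the 4 and the other the highest. Gria3 was the leading subunit of +/+ replicate 2 and Chd5-/- replicate 1, with 51.18 and 65.18 TPM in +/+ and 96.06 and 40.58 TPM in Chd5-/- samples. Gria1, at 25.84 and 13.38 TPM in +/+ and 9.66 and 12.94 TPM in Chd5-/- samples, did not overlap, with the nearest values of both genotypes almost touching (log2 fold change -0.69, standard error 0.39, limma adjusted p = 0.33). Its log2 fold change was -0.24 without +/+ replicate 1 and -1.14 without +/+ replicate 2, and it was past the unadjusted threshold at -0.97 with GC and length trends removed, -1.03 with median-of-ratios scaling and -1.16 with quantile normalization.

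Of the kainate subunits, Grik4 and Grik5 encode the high-affinity subunits that form channels only with Grik1, Grik2 or Grik3. Grik5 (chromosome 7 of GRCm38, 25009849 to 25072346, minus strand) was at 5.1 and 3.57 TPM in +/+ and at 11.84 and 17.57 TPM in Chd5-/- samples, with both Chd5-/- samples clear of the +/+ samples (log2 fold change 1.55, standard error 0.34, limma adjusted p = 0.12). Grik4 was at 0.58 and 0.73 TPM in +/+ and at 1.81 and 2.85 TPM in Chd5-/- samples, also without overlap but close to the testing limit (log2 fold change 0.99, standard error 0.37, limma adjusted p = 0.19). Transcripts of Grik5 and Grik4 are 61.7% and 52.2% GC, and with trends of the table with GC content and length removed their log2 fold changes were 0.56 and 0.48, past the threshold for neither. Grik4 was past it in 7 of 15 alternatives, and not with median-of-ratios scaling, quantile normalization, rescaling, the replicate block or either +/+ sample left out. Grik1, a subunit that forms channels on its own, was at 0.15 and 0.28 TPM in +/+ and at 0.35 and 9.85 TPM in Chd5-/- samples, high in 1 sample alone. Grik2 reached at most 3.66 TPM and overlapped. Grik3 was at 0.77 TPM or below.

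The most abundant NMDA receptor gene in every sample was Grin3a, an atypical subunit that needs Grin1 to reach the cell surface and lowers calcium entry. Grin3a was at 10.57 and 13.89 TPM in +/+ and at 10.77 and 36.91 TPM in Chd5-/- samples, overlapping. Grin1, the obligatory subunit, was at 0.47 and 0.06 TPM in +/+ and at 1.64 and 0.99 TPM in Chd5-/- samples, below the limit for testing in its mean, and it stood at 0.432% to 15.2% of the level of Grin3a. The glutamate-binding subunit Grin2a was at 0.01 TPM and listed at 0 in +/+, and at 3.07 and 0.11 TPM in Chd5-/- samples, high in 1 sample. Grin2b, Grin2c and Grin2d did not exceed 0.6 TPM in any sample.

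Metabotropic receptor RNA consisted of Grm5 and Grm3. Grm5, a group I receptor that couples to phospholipase C, was at 238.58 and 207 TPM in +/+ and at 124.73 and 153.12 TPM in Chd5-/- samples. It was the most abundant receptor gene in +/+ samples, rank 616 of all rows by its +/+ mean, and lower in both Chd5-/- samples than in either +/+ sample (log2 fold change -0.68, standard error 0.23, limma adjusted p = 0.17). It was past the unadjusted threshold in 12 of 16 alternatives, and not with the replicate block or with either +/+ sample left out. Grm3, a group II receptor that lowers cAMP and marks glia (chromosome 5 of GRCm38, 9485541 to 9725170, minus strand), was at 28.53 and 23.1 TPM in +/+ and at 0.71 and 5.18 TPM in Chd5-/- samples. Both Chd5-/- values lay far below both +/+ values (log2 fold change -3.04, standard error 0.64, limma adjusted p = 0.12). Relative to Grm5 it stood at 11.96% and 11.2% in +/+ and at 0.569% and 3.38% in Chd5-/- samples. The group III genes Grm4, Grm6, Grm7 and Grm8 were together at 0.20 TPM or below in every sample. Grm3 kept its direction and an unadjusted p-value under 0.05 in all 16 alternatives run, at log2 fold changes of -3.96 to -2.01.

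Other glial transcripts are given beside Grm5 and Grm3. Slc1a3, the glial glutamate transporter GLAST, was at 1871.05 and 1620.4 TPM in +/+ and at 442.25 and 1005.58 TPM in Chd5-/- samples, without overlap (log2 fold change -1.38, limma adjusted p = 0.16), and was not past the unadjusted threshold with either +/+ sample left out. The list of 8 astrocyte markers summed to 878.17 and 1189.64 TPM in +/+ and 536.38 and 1432.91 TPM in Chd5-/- samples, led by Gja1, Slc1a2 and Aldoc, and 0 of the 8 passed the test at an unadjusted p-value under 0.05 in limma. Chd5-/- replicate 1, lowest for Grm3 and Slc1a3, was also the sample with 22.56 TPM of Aldoc against 215.89 TPM or more elsewhere. Of the 8 markers it was the lowest sample for all but Gja1, Aqp4 and Aldh1l1. Those were at 332.51, 55.81 and 34.65 TPM there and at 179.69, 25.22 and 19.36 TPM in +/+ replicate 1. In Chd5-/- replicate 2, where the astrocyte list was highest, Grm3 was lower than in +/+ as well. The part of cell composition in these differences was not tested.

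**Figure D3:**
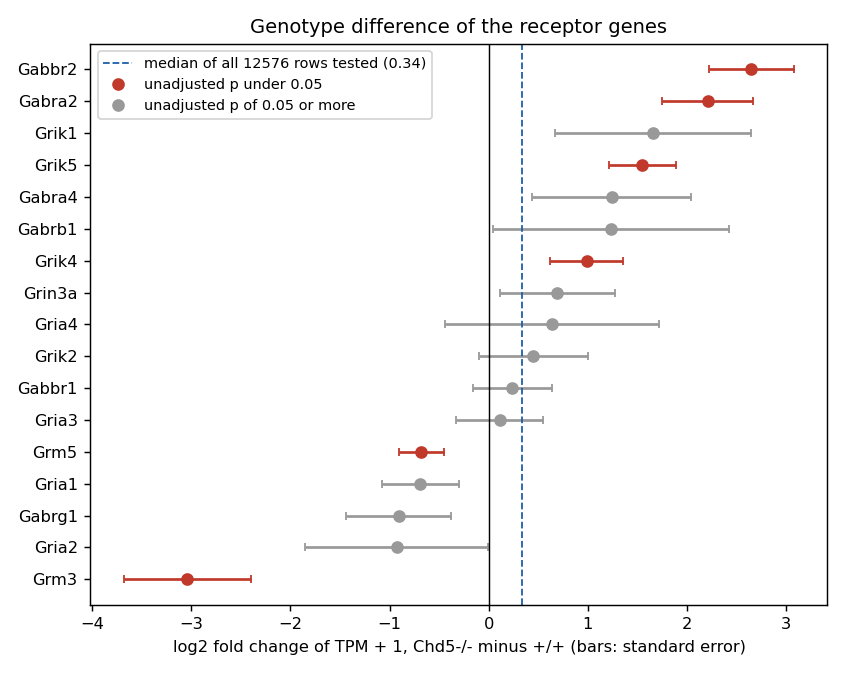
Log2 fold change of TPM + 1, Chd5-/- minus +/+, with standard errors for 17 of the 18 receptor genes tested, ordered by size. Red points have an unadjusted p-value under 0.05, grey points do not, and the dashed line is the median of all rows tested, 0.34. Gabbr2 at 2.65 and Gabra2 at 2.21 are highest and Grm3 at -3.04 lowest.

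The GABA-A subunit genes Gabrg1, Gabra2, Gabra4 and Gabrb1 form a cluster on chromosome 5, in that order. The starts of Gabrg1 and Gabra2 lie 253232 bases apart on the same strand. Gabra4 and Gabrb1 start 195 bases apart on opposite strands and share 196 annotated bases, and since the sources do not say whether counting used the strand, reads there cannot be assigned to either. To show the contrast in composition of neighbouring promoters, the 250 bases before each start of RefSeq (GRCm38.p6) are given for Gabra2 (chr5:71095850-71096099, minus strand) and Gabrg1 (chr5:70842618-70842867, minus strand), and for Grm3 (chr5:9725353-9725602, minus strand) as a gene lower in both Chd5-/- samples. They are written 5′ to 3′ on the strand of the gene, with each CG dinucleotide in capitals.
Gabra2: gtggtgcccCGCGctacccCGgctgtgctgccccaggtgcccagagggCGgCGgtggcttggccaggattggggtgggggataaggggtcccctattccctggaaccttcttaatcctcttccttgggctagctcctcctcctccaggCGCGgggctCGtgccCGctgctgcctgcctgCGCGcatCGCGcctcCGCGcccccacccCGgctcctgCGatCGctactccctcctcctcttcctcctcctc
Gabrg1: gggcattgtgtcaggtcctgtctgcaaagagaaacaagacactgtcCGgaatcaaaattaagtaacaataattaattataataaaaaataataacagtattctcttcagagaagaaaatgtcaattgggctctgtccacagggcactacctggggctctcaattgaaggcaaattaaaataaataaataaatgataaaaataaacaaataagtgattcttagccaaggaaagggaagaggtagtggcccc
Grm3: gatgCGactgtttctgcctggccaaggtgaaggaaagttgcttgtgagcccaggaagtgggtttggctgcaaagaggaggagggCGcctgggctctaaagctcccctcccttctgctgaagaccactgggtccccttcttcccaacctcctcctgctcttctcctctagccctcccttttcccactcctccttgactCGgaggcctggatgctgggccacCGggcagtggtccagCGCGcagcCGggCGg
The windows hold 18, 1 and 8 CG dinucleotides and have a GC content of 70.0%, 35.6% and 62.4%. The ratio of observed to expected CG was 0.61 for Gabra2, 0.13 for Gabrg1 and 0.33 for Grm3, against a median of 0.37 over all 32851 windows. Gabra4 had a ratio of 0.65, the windows before the RefSeq starts of Gabrb1 ratios of 0.71 and 0.37, and Gabbr2, with 37 CG dinucleotides and 80.8% GC, one of 0.92. These windows overlap annotated gene spans in whole or in part and are not printed. Over the 31 windows of 24 receptor genes the median ratio was 0.60. The E-box CAGCTG, which reads alike on both strands, was in 0 of the 31 and in 13.0% of all windows.

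Within the cluster Gabra2, an alpha subunit that binds GABA with a beta partner, was at 13.23 and 34.46 TPM in +/+ and at 112.78 and 94.22 TPM in Chd5-/- samples. The Chd5-/- values were the highest of the 4 and near each other (log2 fold change 2.21, standard error 0.46, limma adjusted p = 0.12). Gabrg1, its CG-poor neighbour and the leading gamma subunit, was at 115.44 and 162.38 TPM in +/+ and at 42.7 and 122.57 TPM in Chd5-/- samples, which overlap (log2 fold change -0.91, limma adjusted p = 0.34). Its log2 fold change was -0.16 without Chd5-/- replicate 1 and -1.66 without Chd5-/- replicate 2. Gabra2 thus stood at 11.5% and 21.2% of Gabrg1 in +/+ and at 264% and 76.9% in Chd5-/- samples. Gabra4 was at 1.32 and 10.02 TPM in +/+ and at 15.51 and 7.67 TPM in Chd5-/- samples. Gabrb1 was at 0.87 and 11.44 TPM in +/+ and at 26.47 and 3.65 TPM in Chd5-/- samples. The genotypes overlapped for both genes, which ranked the samples alike, with +/+ replicate 1 lowest and Chd5-/- replicate 1 highest. Gabra2 kept its direction and an unadjusted p-value under 0.05 in all 16 alternatives run, at log2 fold changes of 1.55 to 2.87.

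**Figure D4:**
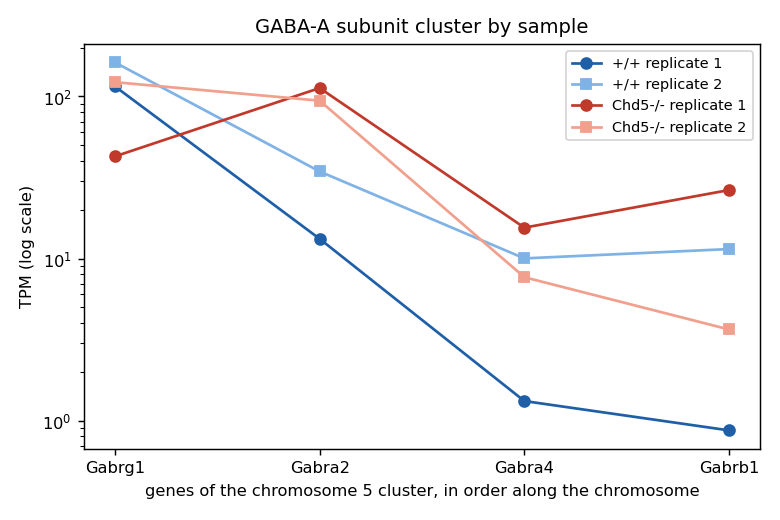
TPM (log axis) of the 4 genes of the chromosome 5 cluster in each sample, genes in chromosomal order without scale and lines joining values of 1 sample. The red lines (Chd5-/-) cross above the blue lines (+/+) at Gabra2, whereas at the other 3 genes the samples of both genotypes interleave.

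Outside the cluster, Gabra3, Gabrb2, Gabrg3, Gabre and Gabrq were at 1.08 TPM or below in all samples. Summed GABA-A levels overlapped, at 146.55 and 243.17 TPM in +/+ and 208.89 and 238.90 TPM in Chd5-/- samples. Gabra2 made up 9.03% and 14.2% of that sum in +/+ and 54.0% and 39.4% in Chd5-/- samples.

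The GABA-B pair was unequal in every sample. Gabbr1, the subunit that binds GABA, was at 63.08 and 37.77 TPM in +/+ and at 43.37 and 77.14 TPM in Chd5-/- samples, overlapping. Gabbr2, which carries the pair to the surface and couples it to G proteins (chromosome 4 of GRCm38, 46662305 to 46991873, minus strand), was at 0.1 and 0.56 TPM in +/+ and at 5.23 and 9.84 TPM in Chd5-/- samples. Every Chd5-/- value exceeded every +/+ value (log2 fold change 2.65, standard error 0.43, limma adjusted p = 0.12). Relative to Gabbr1 it stood at 0.159% and 1.48% in +/+ and at 12.1% and 12.8% in Chd5-/- samples. The difference was past an unadjusted p-value of 0.05 in all 15 alternatives that kept the gene, at log2 fold changes of 1.21 to 4.32, and was 1.90 with the GC and length trends removed.

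Which genes passed the adjusted threshold depended on the samples used. Without Chd5-/- replicate 1, 6 receptor genes passed the adjusted threshold in limma (Gabbr2, Gria4, Grik1, Grik5, Grin3a and Grm3), with 9.92% of all rows, and without Chd5-/- replicate 2, 3 did (Gabbr2, Gabrg1 and Grm3), with 8.64% of all rows. In each case the lone Chd5-/- sample is assumed to vary like the +/+ pair. Leaving out either +/+ sample gave 0, and over all 4 samples 7 of 18 had an unadjusted p-value under 0.05. Gria4, Grik1 and Grin3a were all highest in Chd5-/- replicate 2, as were Grik2, Grik4, Grik5, Gabbr1 and Gabbr2.

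In that sample most markers of the oligodendrocyte lineage were also highest, but not these alone. The astrocyte and neuron lists had their highest sums there as well, at 1432.91 and 925.57 TPM, whereas the stem cell list did not. The share of all rows highest in that sample is not given here. Gpr17, a marker of committed precursors, was at 3.77 and 1.41 TPM in +/+ and at 0.58 and 76.45 TPM in Chd5-/- samples. Cnp, an enzyme of myelinating cells, was at 36.53 and 51.37 TPM in +/+ and at 47.14 and 296.34 TPM in Chd5-/- samples. Chd5-/- replicate 2 was highest for 6 of the 7 precursor markers, Olig2 being the exception, and for Mbp and Cnp, while Mag and Mobp were at 0.14 TPM or below. The precursor list summed to 569.77 and 623.03 TPM in +/+ and 500.90 and 958.95 TPM in Chd5-/- samples. None of the 10 markers tested passed an unadjusted p-value of 0.05 between genotypes in limma. Gria2 was highest in +/+ replicate 1, which was the highest sample for none of the 10 markers tested. The part of this lineage in the receptor values was not tested.

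**Figure D5:**
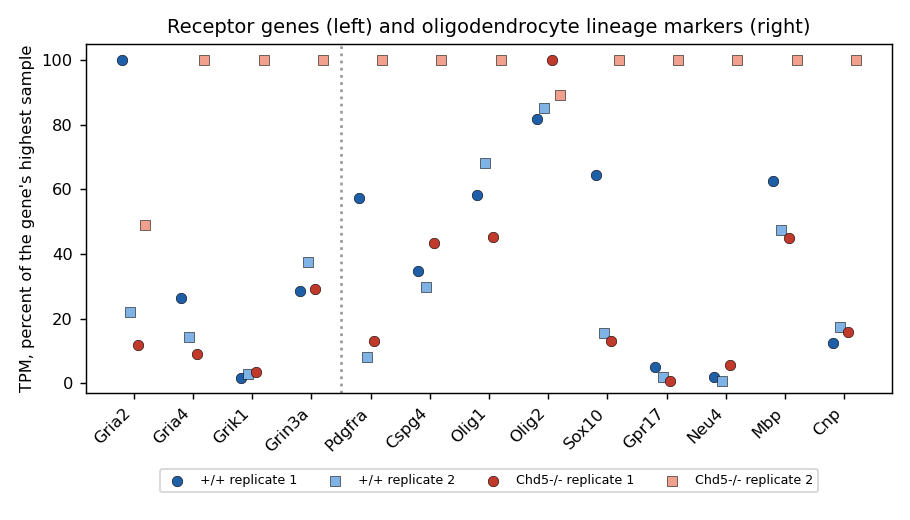
TPM as percent of the gene's highest sample for 4 receptor genes (left of the dotted line) and 9 of the 10 tested markers of oligodendrocyte precursors and oligodendrocytes. Blue points are +/+ and red points Chd5-/- samples. Chd5-/- replicate 2 (light red squares) is at 100% for Gria4, Grik1 and Grin3a and for every marker shown but Olig2; Gria2 is highest in +/+ replicate 1.

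The other genes of glutamate and GABA signalling were taken from 6 lists, of which 59 genes had a row and 42 were tested. At an unadjusted p-value under 0.05 in limma 9 were higher and 2 lower, beside 21.9% and 2.27% of all rows, and none passed the adjusted threshold. Postsynaptic scaffold genes held 7 of the 9, out of 15 tested, with a median log2 fold change of 0.26, beside 0.34 over all rows tested. Shank3, a scaffold of excitatory synapses, was at 3.47 and 2.28 TPM in +/+ and at 24.16 and 11.31 TPM in Chd5-/- samples (log2 fold change 2.2, limma adjusted p = 0.12). Another row named Shank3 was at 0.5 TPM or below in every sample and was not tested. Homer3, which links group I mGlu receptors to calcium stores, was at 2.5 and 1.38 TPM in +/+ and at 11.22 and 7.68 TPM in Chd5-/- samples (log2 fold change 1.84, limma adjusted p = 0.12). The others were Nlgn2 (log2 fold change 1.43), Nlgn3 (1.35), Dlg4 (1.33), Pick1 (1.15) and Gabarap (0.63), all without overlap. With GC and length trends removed, 3 scaffold genes of 15 were higher and 1 lower. The abundant scaffold gene Dlg1 was at 67.12 and 73.1 TPM in +/+ and at 50.99 and 50 TPM in Chd5-/- samples. It was lower without overlap but not past the threshold (log2 fold change -0.46, limma adjusted p = 0.25).

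Of the auxiliary subunits, 2 of 11 were higher, beside 21.9% of all rows, and 0 of 11 with median-of-ratios scaling, quantile normalization or GC and length trends removed, or without +/+ replicate 2. Cacng7, a TARP that escorts AMPA receptors, was at 28.07 and 14.02 TPM in +/+ and at 39.71 and 72.77 TPM in Chd5-/- samples (log2 fold change 1.39, limma adjusted p = 0.16). Cnih2, another AMPA partner, was at 2.02 and 1.74 TPM in +/+ and at 5.09 and 4.19 TPM in Chd5-/- samples (log2 fold change 0.97, limma adjusted p = 0.17). The kainate partner Neto2, the most abundant of the list, was at 160.99 and 240.01 TPM in +/+ and at 140.66 and 93.94 TPM in Chd5-/- samples, without overlap but short of the threshold. Cacng5 was at 12.73 and 3.42 TPM in +/+ and at 11.97 and 35.82 TPM in Chd5-/- samples, overlapping.

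Transporters of both transmitters summed to 973.58 to 2875.21 TPM per sample. Besides Slc1a3, the GABA transporter Slc6a11 averaged 318.5 TPM and overlapped between genotypes, and Slc1a3 was the 1 of 5 tested in this list past the threshold. Of the enzymes, 0 of 7 were past it, among them the abundant Glud1 (629.4 TPM on average), Glul (349.2 TPM) and Abat (100.9 TPM). Gad1, which makes GABA, was at 27.85 and 4.34 TPM in +/+ and at 57.17 and 5.38 TPM in Chd5-/- samples, high in replicate 1 of both genotypes. Gad2, another such enzyme, was at 1.45 TPM or below. The chloride importer Slc12a2 averaged 35.1 TPM and its counterpart Slc12a5, the exporter of mature neurons, 0.698 TPM. Glrb, the beta subunit of the glycine receptor, was at 93.75 and 104.2 TPM in +/+ and at 64.44 and 65.33 TPM in Chd5-/- samples (log2 fold change -0.60, limma adjusted p = 0.18). Glrb was not past the unadjusted threshold with the replicate block, alone or with GC and length trends removed, or without the eBayes trend. Nor was it with either +/+ sample left out. The delta receptor gene Grid1 was at 4.69 TPM or below.

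Neuronal markers differed in both directions beside these genes. Gap43, of growing axons, was at 47.73 and 28.03 TPM in +/+ and at 147.89 and 120.73 TPM in Chd5-/- samples, Syt1 at 0.73 and 0.73 TPM and at 2.21 and 7.62 TPM, and Elavl3 at 12.34 and 8.63 TPM and at 4.15 and 5.74 TPM. These were the 2 higher and the 1 lower of the 6 tested at an unadjusted p-value under 0.05 in limma. Over all rows tested the shares were 21.9% higher and 2.27% lower. The limma adjusted p-values of Gap43, Syt1 and Elavl3 were 0.12, 0.17 and 0.18. Map2 led the list and overlapped, and Dcx was at 2.37 TPM or below.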

How the data were processed

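The 4 libraries came from primary NSCs, 2 per genotype. The authors deposited TPM values in 1 table (per the labels, polyadenylated RNA from stranded libraries), and the submitters' processing notes name Bowtie2 2.2.3, RSEM 1.2.20 and the build mm10. Columns were matched to samples by name. Some names, 196 in all, fill several rows. TPM gives no depth, so no counting error could be attached to a value.

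Values were taken to log2(TPM + 1), and genotype was tested in rows averaging 1 TPM or more with limma 3.58.1 in R 4.3.3 (eBayes with a trend, two-sided, Benjamini-Hochberg over all rows tested). The smallest p an exact permutation test of 2 against 2 can give is 0.333, so none was used. Receptor genes with a mean of at least 1 TPM are given for every sample. Of each other list, up to 4 genes past an unadjusted p of 0.05 without overlap and the 3 most abundant are named, and further genes were picked with their values known. Some genes under this rule are left out of the text and figures. Members and lists were chosen with earlier results of these data known. Positions, GC content and length came from GENCODE M21 of GRCm38 (found for 96.2% of rows tested) and promoter windows from RefSeq. Labels give no pairing of replicate numbers. The script was tested on simulated data. Python 3.11.15 with numpy 2.4.6, pandas 2.3.3 and matplotlib 3.10.9 made tables and figures.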

Additional observations from a re-analysis of the deposited data

How the results depend on the processing

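The direction and unadjusted call of Gabbr2, Gabra2 and Grm3 held in every alternative that kept the gene. A minimum mean of 10 TPM left Gabbr2, Grik4 and Grik5 untested, at means of 3.93, 1.49 and 9.52 TPM. Of the 4 higher genes only Gabra2 was tested there, and it kept its call (limma unadjusted p = 0.0041). Counts and the median at that minimum are therefore over fewer than 18 receptor genes. Of 18 receptor genes, the 4 higher became 1 with a minimum mean of 10 TPM, 2 with GC and length trends removed and 2 with those trends removed and a replicate block, and 3 to 8 when 1 sample was left out. The 3 lower became 1 with the replicate block, alone or with the trends removed, and 1 to 3 with 1 sample left out. The adjusted count was 0 to 6 when 1 sample was left out. The median log2 fold change of 0.55 was -0.28 with a minimum of 10 TPM, 0.11 with no minimum, 0.26 with median-of-ratios scaling, 0.15 with quantile normalization and -0.16 to 0.71 with 1 sample left out. The 9 higher pathway genes became 5 with median-of-ratios scaling, 4 with quantile normalization, 3 with trends removed, 2 with trends removed and the block, and 3 to 18 with 1 sample left out. The 2 lower pathway genes became 4 with median-of-ratios scaling, 6 with quantile normalization, 4 with rescaling without the 20 most abundant rows, 1 with the block, 1 with the block and trends removed, 1 without the eBayes trend, and 0 to 5 with 1 sample left out.

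Some log2 fold changes reversed. Gria3 was -0.25 with median-of-ratios scaling, -0.04 with quantile normalization, -0.12 with rescaling, and -0.50 to 0.72 with 1 sample left out. Gabbr1 was -0.13 with median-of-ratios scaling, -0.35 with trends removed, also with the block, and -0.17 to 0.65 with 1 sample left out. Grik2 was -0.17 with quantile normalization and -0.18 to 1.09 with 1 sample left out. With 1 sample left out, Gria2 was -2.00 to 0.15, Gabrb1 -0.14 to 2.60, Gria4 -1.02 to 2.31 and Grin3a -0.16 to 1.53. The cause was not tested.

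Deviations of same-numbered samples from their genotype means correlated at -0.152. A crossed pairing, chosen after seeing the data, gave 5 higher and 4 lower receptor genes. With 2 samples per genotype and no read depth, a gene short of a threshold is not shown to be equal between genotypes.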
